A study of Mus musculus with 8 samples.

Results

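SMAD4 binding was examined at 10 genes of the WNT pathway and of the limb ectoderm that produces WNT ligands, namely Wnt3, Wnt5a, Wnt7a, Rspo2, Dkk1, Axin2, Lef1, Tcf7, Sp8 and En1. The genes were chosen by name, and every SMAD4 peak whose centre lay within 100 kb of the 5′ end of one of them was taken, on mm9 with the GENCODE vM1 annotation. These are 10 of 22350 protein-coding genes, and their peaks are 2 of the 2073 regions of the E9.5 list and 7 of the 6185 regions of the E10.5 list. SMAD4 is the shared partner of the SMAD proteins that carry BMP and TGFβ signals into the nucleus. It was precipitated from mouse embryos that are homozygous for a Smad4Flag allele, in which the endogenous protein carries a 3xFLAG epitope, so that the M2 anti-FLAG antibody could be used.

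All embryos, including those for the input DNA, were of the NMRI strain and carried this allele. The E9.5 SMAD4 ChIP samples came from forelimb buds with the trunk tissue still attached, pooled from about 80 embryos per replicate, which the protocol stages at E9.75. The E10.5 SMAD4 ChIP samples came from pooled fore- and hindlimb buds of 100 embryos per replicate, although the source label names the forelimb for every sample. There were 4 groups of 2 samples, the inputs of each stage serving as controls of the peak calling. Each stage is represented by 1 list in which both replicates are merged. Therefore, no value below has a replicate error and no difference between the stages could be tested from these lists. Stage cannot be told apart from hindlimb and trunk content. The read depth behind the lists is unknown, and a region outside them is not shown to be unbound. In these bulk preparations, fewer cells with bound SMAD4 and less SMAD4 per cell cannot be told apart. These ChIP lists hold no expression values, so the tissue was not checked against its markers here.

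WNT ligands are secreted lipid-modified proteins that bind Frizzled receptors with LRP co-receptors. Receptor activation stabilises β-catenin, which acts with the LEF1 and TCF DNA-binding proteins on target genes such as Axin2, itself a negative feedback regulator of the pathway. R-spondins raise the level of receptors at the membrane, whereas DKK1 blocks the LRP co-receptors. In the limb bud, ectodermal WNT3 is needed for the ridge of signalling cells at the distal margin, the apical ectodermal ridge (AER), WNT7A marks the dorsal ectoderm and WNT5A drives outgrowth from the distal mesenchyme, while EN1 keeps Wnt7a out of the ventral ectoderm.

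The 10 genes divided into those with peaks at both stages, those with a peak in the E10.5 list alone and those with none. Wnt5a and En1 had 1 peak in each list. Wnt3, Rspo2, Axin2 and Lef1 had peaks in the E10.5 list alone, and Wnt7a, Dkk1, Tcf7 and Sp8 had no peak within 100 kb in either. Thus, 2 of 10 genes had an E9.5 peak, beside 20.5% of all protein-coding genes. At E10.5, 6 of 10 had one, beside 52.9%. With the longer E10.5 list cut to its best-scored 2073 peaks, the length of the E9.5 list, 1 of 10 genes, Wnt5a, had an E10.5 peak, beside 28.0% of all coding genes. At the 10 genes the order of the stages thus turned, with 1 gene against 2. Over all coding genes it did not turn, with 28.0% at E10.5 against 20.5% at E9.5. The counts of the 10 genes do not show more binding at E10.5. Both stages were represented at 2 of 10 genes, beside 14.7% of all genes. With 10 genes, these shares within 100 kb are close to the background and are not a result about the WNT genes. Within 50 kb, 2 of 10 genes had an E9.5 peak, beside 11.4% of all coding genes. There, 6 of 10 had an E10.5 peak, beside 37.8%, and 2 of 10 had both, beside 6.56%. When each peak was given to its nearest coding 5′ end alone, 2 of 10 genes had a peak at E9.5, beside 6.75% of all coding genes, 5 of 10 at E10.5, beside 20.3%, and 2 of 10 at both stages, beside 3.06%. Under that rule, a gene with few coding 5′ ends around it is given peaks from a longer stretch, and these genes have few. How much this adds to the shares was not tested. The counts are small, and neither these shares nor those within 50 kb are a result about the WNT genes.

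**Figure D1:**
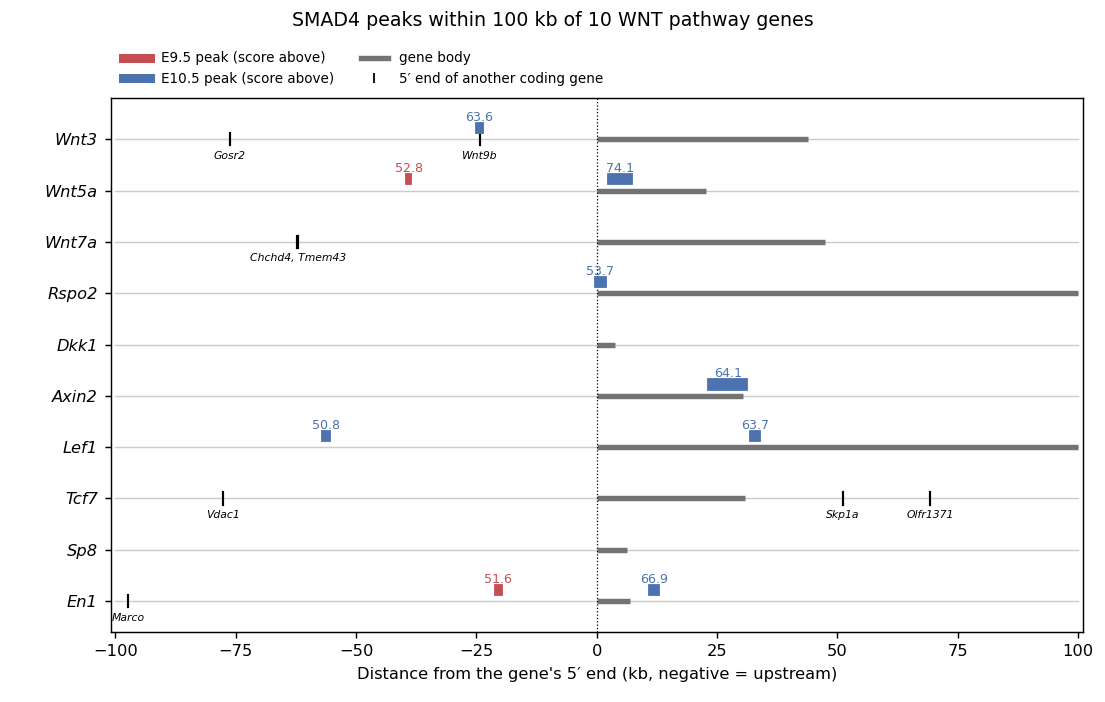
Peaks within 100 kb of the 5′ end of each gene, in kb along the direction of transcription, with the score of each peak above it, the gene body in grey (drawn up to 100 kb) and 5′ ends of other protein-coding genes as ticks. Peaks narrower than 0.9 kb are drawn 0.9 kb wide. Wnt5a and En1 have their E9.5 peak upstream and their E10.5 peak downstream of the 5′ end, and 4 genes have no peak.

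The 10 genes lie in gene-poor surroundings. The median number of protein-coding 5′ ends within 100 kb, the gene itself included, was 1 for these genes and 4 for all protein-coding genes, and 6 of the 10 had no other coding 5′ end at that distance. None had more than 4. Among the 11633 genes with at most 4 coding 5′ ends in that interval, 19.2% had a peak in the E9.5 list and 44.2% in the E10.5 list. The WNT gene itself was the nearest coding 5′ end for 8 of the 9 peaks, and the exception was the peak assigned to Wnt3. With so few other coding 5′ ends nearby, this count was largely set by the surroundings. It does not show that the peaks act on the WNT genes.

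No peak at these genes was shared between the stages. An E9.5 and an E10.5 region were called shared when they had at least 1 bp in common, which held for 18.7% of the former list and 6.26% of the latter. Of the 9 peaks at these genes, 0 were shared, and 0 of 10 genes had a shared peak within 100 kb, beside 5.52% of all protein-coding genes. With so few peaks and genes, a count of 0 is near these shares and is not a result about the WNT genes. At Wnt5a the centres of the E9.5 and the E10.5 peak were 43.9 kb apart, and at En1 they were 32.4 kb apart. Leaving out the width of the regions, gaps of 41.1 kb and 30.6 kb remained.

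The 9 peaks were spread over the ranks of their lists. None was among the best-scored 10% of its list, a count near that share for 9 peaks. Peaks were ordered by the deposited score. Per the methods of the study, a merged peak took the best MACS P-value of its replicates, but the lists do not name the scale of the score. Apart from the choice of the windows shown, neither levels nor ranks were therefore compared between the lists. The scores ran from 31.56 to 3100 at E9.5 with a median of 56.3, and from 31.36 to 2155.22 at E10.5 with a median of 59.75. Both E9.5 peaks scored below the median of their list, and 5 of 7 E10.5 peaks scored above the median of theirs. The lists differ in length, so these positions are not compared between the stages. Among the 7 E10.5 peaks, the best-ranked was that in Wnt5a, which scored better than 75.7% of its list. The lowest of these 7 was the upstream peak of Lef1, better than 17.1%.

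**Figure D2:**
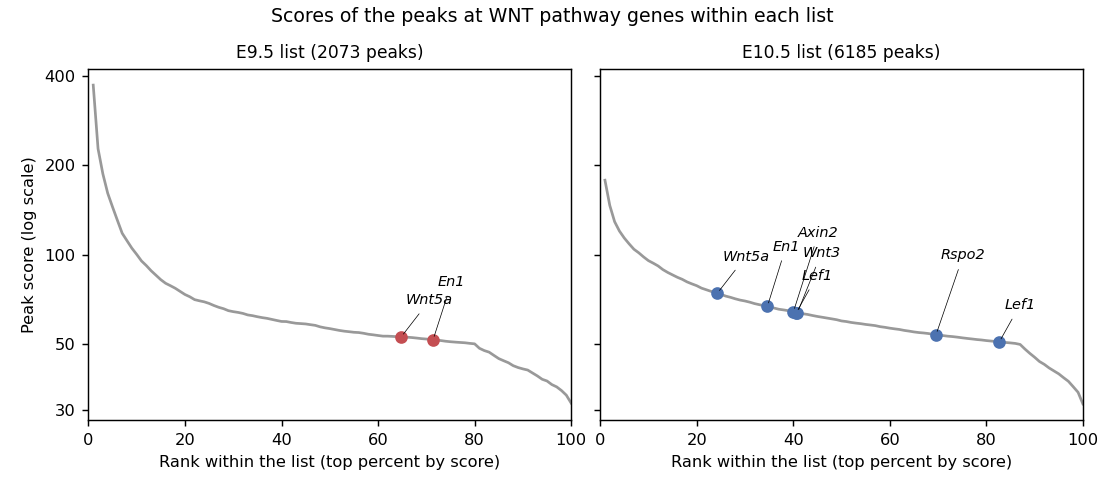
Score (log axis) against rank, as percent from the top, for the peaks at WNT pathway genes (points) on the curve of all peaks of the list (grey, from the top 1 percent down). Both E9.5 points lie right of the middle of the list, and 5 of the 7 E10.5 points lie left of it.

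Among the 3 ligand genes of the group, Wnt5a had the best-ranked E10.5 peak. The gene lies at chr14:29317936-29340633 on the plus strand and has no other coding 5′ end within 100 kb. Its E10.5 peak (chr14:29320288-29325212) was 4925 bp wide with a score of 74.06, rank 1501 of 6185. The centre lay 4.81 kb downstream of the 5′ end, inside the gene, in an exon of the non-coding transcript Gm2670. The peak began 2.35 kb inside the gene. It did not cover the 5′ end, but it covered 4 of the 6 annotated transcript starts of Wnt5a, those located 5.87 to 6.70 kb from the 5′ end. It was wider than 82.3% of the list. Of all coding genes, 12.9% had an E10.5 peak nearer to their 5′ end.

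The E9.5 peak of Wnt5a (chr14:29278536-29279208) was located on the other side of the promoter. It was 673 bp wide with a score of 52.77, rank 1343 of 2073, and its centre lay 39.1 kb upstream, in an intron of the neighbouring gene Erc2. No other E9.5 peak was found within 1 Mb of Wnt5a, the next being 1438 kb away near Il17rd. In the E10.5 list, the next peak lay 523 kb downstream. Hence, each list placed SMAD4 once within 100 kb of this ligand gene, upstream at E9.5 and inside the gene at E10.5.

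The sequences of the 300 bp around the peak centres are shown because they are the intervals in which binding motifs were counted. They are read from the mm9 plus strand of the reference genome and not from the NMRI embryos. Capitals mark the motifs searched on both strands: CAGAC (the SMAD box), GTCTAGAC (a SMAD palindrome, which contains AGAC but not the whole SMAD box), GGCGCC (a GC-rich SMAD motif), and the TCF/LEF cores CTTTGAA and CTTTGAT. On the other strand the SMAD box reads GTCTG. The E9.5 window of Wnt5a held 3 SMAD boxes, the last pair of them separated by a single base, and the E10.5 window held 1.
Wnt5a E9.5, chr14:29278723-29279022: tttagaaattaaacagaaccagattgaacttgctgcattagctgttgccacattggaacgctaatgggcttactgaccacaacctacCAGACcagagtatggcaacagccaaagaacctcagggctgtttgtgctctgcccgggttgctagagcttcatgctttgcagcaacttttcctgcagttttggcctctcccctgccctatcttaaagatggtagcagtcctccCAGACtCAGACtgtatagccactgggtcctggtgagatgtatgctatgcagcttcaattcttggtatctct
Wnt5a E10.5, chr14:29322601-29322900: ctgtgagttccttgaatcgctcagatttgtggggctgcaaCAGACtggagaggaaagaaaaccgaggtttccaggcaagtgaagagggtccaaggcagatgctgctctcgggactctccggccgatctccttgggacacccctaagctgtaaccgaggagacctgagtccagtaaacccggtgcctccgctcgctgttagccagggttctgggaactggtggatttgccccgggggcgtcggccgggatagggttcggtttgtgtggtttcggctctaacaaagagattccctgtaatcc

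Wnt3 had a single peak, which lay at the start of another WNT ligand gene. Wnt3 (chr11:103635464-103679271, plus strand) has Wnt9b as a neighbour, whose 5′ end is 24.3 kb upstream of that of Wnt3. The E10.5 peak (chr11:103610302-103611811) was 1510 bp wide with a score of 63.61, rank 2527 of 6185. Its centre was 24.4 kb upstream of Wnt3 but only 0.079 kb from the 5′ end of Wnt9b, in a coding exon of Wnt9b. These data do not tell which of the neighbours, if either, the binding concerns. The centre was GC-rich, at 75.3% of 300 bp, compared to a median of 55% for the E10.5 list, and it held no motif. The part of the window outside untranslated exons, 177 bp long, was as follows.
Wnt3 E10.5, chr11:103610907-103611083: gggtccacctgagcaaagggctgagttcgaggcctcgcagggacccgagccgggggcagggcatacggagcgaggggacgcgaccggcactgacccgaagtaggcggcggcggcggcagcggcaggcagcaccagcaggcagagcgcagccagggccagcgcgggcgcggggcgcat

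The nearest E9.5 peak to Wnt3 was 1169 kb away. It lay at Fzd2, a WNT receptor gene, with its centre 0.615 kb from the Fzd2 5′ end and rank 1647 of 2073.

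Wnt7a had no peak within the interval, but was the gene closest to having one. Wnt7a (chr6:91313975-91361357, minus strand) had its nearest E10.5 peak (chr6:91248449-91254655, score 66.63, rank 2168) 109.8 kb downstream of the 5′ end, where the nearest coding gene was Fbln2. This was the first peak outside the limit of 100 kb, while the farthest inside it was the upstream Lef1 peak at 56.2 kb. The limit therefore passes through a gap between these values. Shorter annotated Wnt7a transcripts start 46.3 kb inside the gene, and measured from them the same peak was 63.5 kb away. The nearest E9.5 peak was 656 kb away. Within 1 Mb, Wnt7a had 4 E9.5 and 14 E10.5 peaks, among them a shared pair 680 kb upstream near Nr2c2, at rank 411 at E9.5 and rank 501 at E10.5.

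Rspo2, encoding the R-spondin of the AER, was the only one of the 10 genes with a peak over its 5′ end. Rspo2 lies at chr15:42852357-43002364 on the minus strand, with no other coding 5′ end within 100 kb. The E10.5 peak (chr15:43000530-43002774) was 2245 bp wide and its centre was 0.712 kb downstream of the 5′ end, in an intron. Its score of 53.67 ranked 4303 of 6185. The 5′ ends of only 8.16% of all coding genes had an E10.5 peak nearer than this. No other E10.5 peak lay within 1 Mb, and the nearest E9.5 peak was 956 kb away. The window around the centre held none of the motifs, whereas the whole peak held 3 SMAD boxes and 1 GC-rich SMAD motif. Only the 118 bp of the window outside untranslated exons are shown.
Rspo2 E10.5, chr15:43001542-43001659: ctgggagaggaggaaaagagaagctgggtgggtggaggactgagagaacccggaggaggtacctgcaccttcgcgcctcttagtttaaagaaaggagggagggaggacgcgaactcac

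Dkk1, encoding the secreted antagonist, was the gene farthest from any E10.5 peak. The nearest lay 744 kb from its 5′ end (Dkk1 gene at chr19:30620353-30624155, minus strand) with a score of 50.57, rank 5180 of 6185, and 88.0% of coding genes had a nearer one. In the E9.5 list, the nearest peak was 1027 kb away. That region had a score of 102.94, rank 199 of 2073, and was shared between the stages, but its nearest coding gene was C030046E11Rik. Dkk1 was one of 2 genes, with Wnt3, that had no E9.5 peak within 1 Mb. In the E10.5 list, 2 peaks lay within 1 Mb of Dkk1. The paper names Dkk1 among its SMAD4 target genes. It assigned peaks in open chromatin to the nearest differentially expressed gene in an interval of at most 1 Mb. The limit of 100 kb used here is narrower, so an absence within it does not speak to that call.

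**Figure D3:**
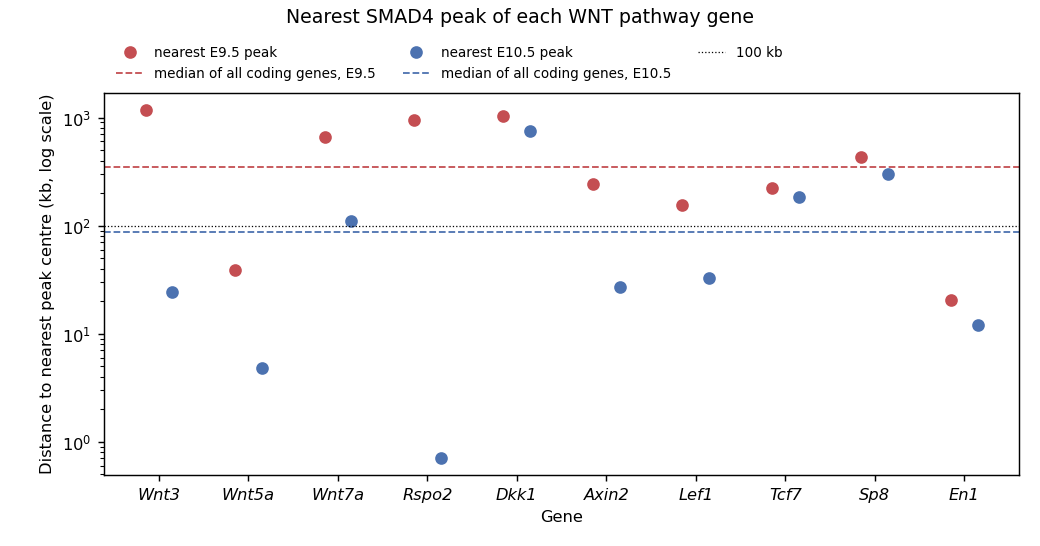
Distance in kb (log axis) from the 5′ end of each gene to the nearest peak centre of the E9.5 list (red) and the E10.5 list (blue), with dashed lines for the median over all protein-coding genes and a dotted line at 100 kb. At E10.5, 6 genes lie below the dotted line, with Rspo2 lowest and Dkk1 highest.

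The distance to the nearest peak was also taken without a limit. Across the 10 genes, the median was 338 kb at E9.5, beside 350 kb for all coding genes, and 30.03 kb at E10.5, beside 87.8 kb. The E10.5 list is 2.98 times as long as the E9.5 list, and distances are shorter in it over all genes.

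Axin2, the feedback inhibitor that is induced by β-catenin signalling in many tissues, had the widest of the 9 peaks. Axin2 lies at chr11:108781663-108812097 on the plus strand. The E10.5 peak (chr11:108804848-108812982) was 8135 bp wide, wider than 97.1% of the list, with a score of 64.11, rank 2476 of 6185. Its centre was in an intron, 27.3 kb downstream of the 5′ end, and the region ran past the 3′ end of the gene, covering 619 bp of coding sequence and 1391 bp of untranslated sequence. The 5′ end was not covered. An alternative transcript start 23.3 kb from the 5′ end lay within the peak. The nearest E9.5 peak was 241 kb away, with a score of 43.14 and rank 1806 of 2073.

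The Axin2 window was the only one of the 9 with a TCF/LEF core in its central 300 bp. Such a core, CTTTGAA or CTTTGAT, was found in 8.06% of all E9.5 windows, in 6.61% of all E10.5 windows and in 8.00% of all coding promoters of that length.
Axin2 E10.5, chr11:108808766-108809065: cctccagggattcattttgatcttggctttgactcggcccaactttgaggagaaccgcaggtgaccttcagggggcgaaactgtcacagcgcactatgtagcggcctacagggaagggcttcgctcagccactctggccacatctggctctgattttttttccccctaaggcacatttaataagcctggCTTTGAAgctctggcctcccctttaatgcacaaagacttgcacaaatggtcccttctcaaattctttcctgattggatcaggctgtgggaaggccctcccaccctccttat

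The nuclear effectors Lef1 and Tcf7 encode related DNA-binding partners of β-catenin and differed in the lists. Lef1 (chr3:130813389-130927274, plus strand) was the only gene with 2 peaks in the same list. One E10.5 peak (chr3:130845183-130847224) lay in an intron, 32.8 kb downstream of the 5′ end, and was 2042 bp wide with a score of 63.74, rank 2514 of 6185. The other (chr3:130756386-130757913) was intergenic, 56.2 kb upstream, and 1528 bp wide with a score of 50.76, rank 5114. Neither central window held a motif, though the intronic peak as a whole held 2 SMAD boxes and 1 TCF/LEF core. In the E9.5 list, the nearest peak was found 153.6 kb downstream of the 5′ end, beyond the gene, with a score of 70.00 and rank 471 of 2073, and the nearest coding 5′ end there was that of Hadh.

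Tcf7, in contrast, had no peak within 100 kb in either list. From its 5′ end (Tcf7 gene at chr11:52065873-52096681, minus strand), the nearest E9.5 peak was 223 kb upstream, and the nearest E10.5 peak was 184.5 kb downstream with a score of 61.76, near Ppp2ca. Nearer peaks were found for 37.5% of coding genes at E9.5 and for 66.0% at E10.5. With 3 other coding 5′ ends within 100 kb, Tcf7 had the most of the 10 genes. Within 1 Mb it had 5 E9.5 and 13 E10.5 peaks, of which the best-ranked (rank 344 of 6185) was near Fstl4.

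The factors of the limb ectoderm also differed. Sp8 encodes a zinc finger protein required for the AER, and En1 encodes the homeodomain repressor of the ventral ectoderm. Sp8 (chr12:120084802-120091051, plus strand) had no peak within 100 kb. Its nearest peaks lay 435 kb away at E9.5 (score 62.36, rank 697) and 298 kb away at E10.5 (score 53.44, rank 4362), and Itgb8 was the nearest coding gene to both. Within 1 Mb there was a shared pair 545 kb upstream near Sp4, another gene of the same zinc finger family, with rank 619 of 2073 at E9.5 and rank 3258 of 6185 at E10.5.

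En1 (chr1:122498995-122505873, plus strand) had intergenic peaks on both sides. The E9.5 peak (chr1:122477859-122479243) was located 20.4 kb upstream and was 1385 bp wide with a score of 51.60, rank 1480 of 2073. The E10.5 peak (chr1:122509891-122511981) was located 11.9 kb downstream of the 5′ end, beyond the 3′ end of this short gene, and was 2091 bp wide with a score of 66.91, rank 2143 of 6185. Only 5.62% of coding genes had an E9.5 peak nearer, and 17.98% an E10.5 peak nearer. A further E9.5 peak 257 kb downstream, for which En1 was also the nearest coding 5′ end, had a better score of 97.97 and rank 219. The E9.5 window held 4 SMAD boxes, 3 on the printed strand and 1 on the other, and the E10.5 window held 1.
En1 E9.5, chr1:122478402-122478701: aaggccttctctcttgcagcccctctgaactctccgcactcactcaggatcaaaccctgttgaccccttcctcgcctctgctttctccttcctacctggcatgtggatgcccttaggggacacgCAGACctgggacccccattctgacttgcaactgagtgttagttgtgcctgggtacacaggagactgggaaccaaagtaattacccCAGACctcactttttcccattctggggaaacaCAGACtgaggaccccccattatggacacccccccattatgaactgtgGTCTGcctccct
En1 E10.5, chr1:122510787-122511086: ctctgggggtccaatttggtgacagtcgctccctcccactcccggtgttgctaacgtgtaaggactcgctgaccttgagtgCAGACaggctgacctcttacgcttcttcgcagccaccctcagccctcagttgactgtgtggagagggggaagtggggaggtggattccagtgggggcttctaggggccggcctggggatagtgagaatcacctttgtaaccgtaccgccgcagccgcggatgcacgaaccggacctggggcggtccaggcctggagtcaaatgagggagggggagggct

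The peaks of both stages were compared in their position and their binding sequences. Of the 9 peak centres, 4 lay in introns, 3 between genes, 1 in a coding exon and 1 in a non-coding exon. Upstream of the gene lay 4 of them and downstream of its 5′ end 5. Centres within 5 kb of any annotated transcript start were found for 0 of 2 E9.5 peaks, beside 36.2% of the E9.5 list, and for 4 of 7 E10.5 peaks, beside 53.6% of the E10.5 list. Within 5 kb of the 5′ end of the WNT gene itself were 2 of the 9, those of Wnt5a and Rspo2 at E10.5.

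SMAD boxes were found in 4 of the 9 central windows, those of Wnt5a and En1 at either stage. In the whole lists, 60.6% of E9.5 windows and 53.2% of E10.5 windows held a SMAD box, as did 48.5% of coding promoters of the same length. The palindrome was in 0 of 9 windows, beside 1.21% at E9.5, 0.420% at E10.5 and 0.174% of promoters. The GC-rich motif was in 0 of 9, beside 12.6%, 13.1% and 14.3%. The core CTTTGAA was in 1 of 9, beside 4.78%, 3.95% and 4.75%, and CTTTGAT in 0 of 9, beside 3.47%, 2.78% and 3.47%. In the 500 bp around the centre, a SMAD box was found in 8 of 9 windows, beside 77.1% at E9.5 and 71.6% at E10.5 in the lists. The GC-rich motif was in 2 of 9 of these, beside 17.2% and 19.5%. Every one of the 9 peaks held a SMAD box when its whole width was read, beside 94.0% of all E9.5 peaks and 98.2% of all E10.5 peaks. The GC-rich motif was in 4 of 9 whole peaks, beside 26.1% at E9.5 and 43.96% at E10.5 in the lists, and a TCF/LEF core in 4 of 9, beside 34.7% and 54.3%. A match of so few letters is a description of the sequence and not a bound site.

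The E9.5 peaks at Wnt5a and En1 were denser in SMAD boxes than the E10.5 peaks. Over the whole width, Wnt5a had 4.46 and En1 4.33 boxes per kb at E9.5, and the 7 E10.5 peaks had 0.979 to 2.65 per kb, while the lists as a whole had 3.27 at E9.5 and 2.97 at E10.5. In the central 300 bp, at least 3 boxes were found in 10.1% of the E9.5 list and in both E9.5 peaks described here, and at least 4 in 3.86% of the list and in that of En1. In the E10.5 list, at least 3 were found in 6.06% and at least 4 in 1.71%, and no E10.5 window described here held that many. These counts were looked at after the windows had been searched. The narrower regions of the E9.5 list, with a median width of 1244 bp against 2552 bp, enter these densities, and their part was not tested.

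**Figure D4:**
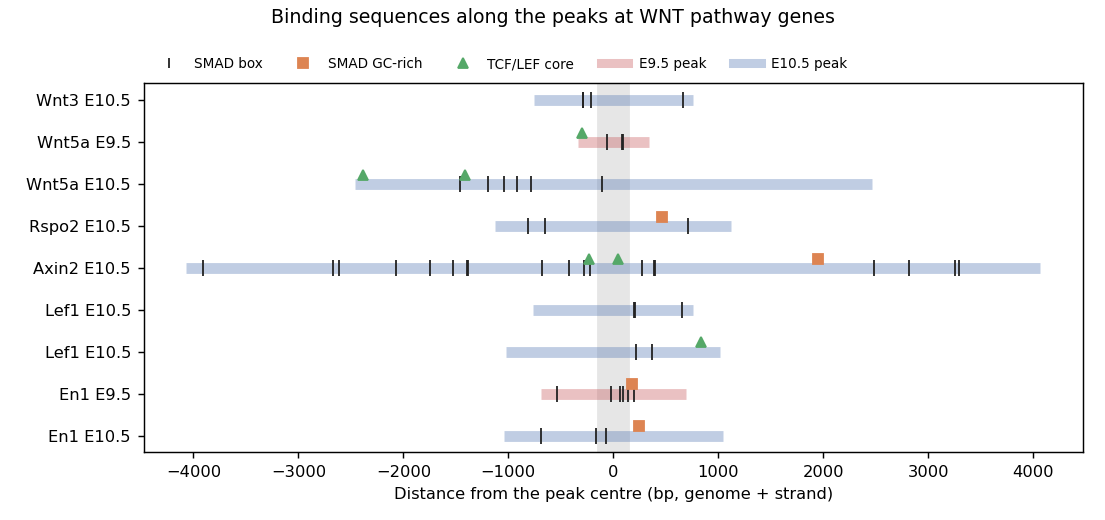
Positions of SMAD boxes (ticks), GC-rich SMAD motifs (squares) and TCF/LEF cores (triangles) along each of the 9 peaks, in bp from the peak centre on the plus strand, with the central 300 bp shaded and peaks drawn to scale. In the shaded part, Wnt5a and En1 hold 3 and 4 boxes at E9.5 and 1 each at E10.5, and a TCF/LEF core lies there in Axin2.

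The 10 genes were placed beside a wider list of 92 genes that covers the pathway from secretion to the nucleus and includes them. In this list, 21 genes (22.8%) had a peak within 100 kb at E9.5 and 68 (73.9%) at E10.5, beside 20.5% and 52.9% of all protein-coding genes. Within 100 kb, a shared peak was found for 9 genes (9.78%), beside 5.52% of all protein-coding genes. Wnt3a and Wnt9a counted the same one. Of the 82 genes outside the group of 10, 62 (75.6%) had an E10.5 peak, compared to 6 of 10 within it, and 9 had a shared peak, compared to 0. Neighbouring WNT genes can count the same peak, as Wnt3 and Wnt9b did, and this comparison was not tested.

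By role, ligand genes had an E10.5 peak in 16 of 19 cases and an E9.5 peak in 6. Over all protein-coding genes, 52.9% had an E10.5 peak and 20.5% an E9.5 peak. The lists differ in length, and no class was tested against these shares. Wnt7a was one of the 3 ligands with none at E10.5, together with Wnt8b and Wnt16. Receptors and co-receptors had an E10.5 peak in 12 of 15 cases and an E9.5 peak in 5. The R-spondin branch, which includes the LGR receptors and the ligases RNF43 and ZNRF3, had an E10.5 peak in 8 of 9 cases and an E9.5 peak in 0 of 9. Rspo2 was among the 8. With 9 genes, a count of 0 is near the E9.5 share of all coding genes and is not a result about this branch. Among the inhibitors, 9 of 17 had an E10.5 peak and 4 an E9.5 peak, and Dkk1 shared the lack of both with Dkk2, Kremen1, Sfrp4, Frzb and Sostdc1. The cytoplasmic components had 10 of 15 and 2 of 15, and the nuclear effectors 11 of 13 and 3 of 13, where Tcf7 and Tle4 were the genes with neither.

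**Figure D5:**
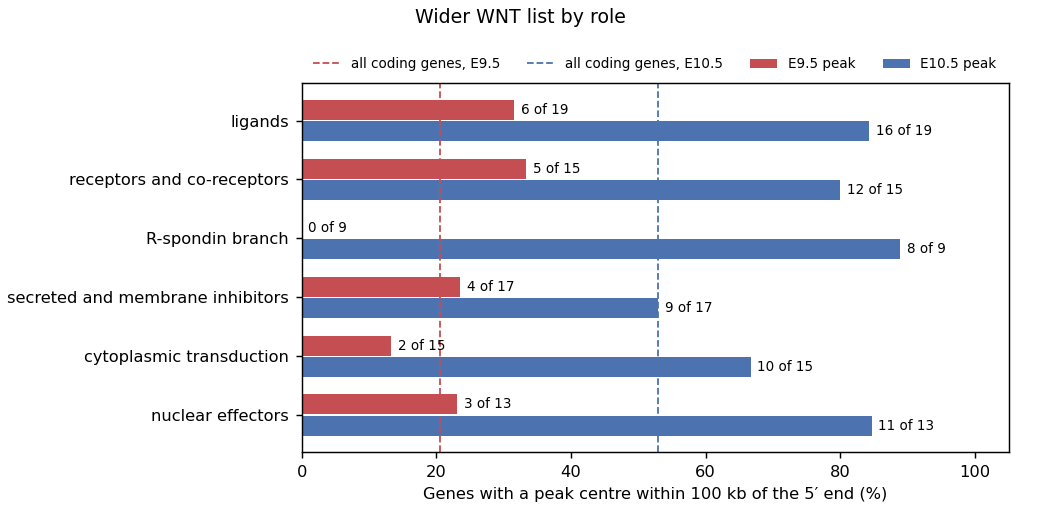
Percent of genes with a peak centre within 100 kb of the 5′ end in each role class of the wider WNT list, with the counts beside the bars and dashed lines for all protein-coding genes. At E10.5 the bars run from 9 of 17 inhibitors to 8 of 9 genes of the R-spondin branch, and at E9.5 that branch is at 0 of 9. Classes of 2 genes are not drawn.

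The best-ranked peaks of the wider list lay at genes other than the 10. At E9.5, a peak with a score of 234.67 (rank 41 of 2073) lay within 100 kb of both Wnt3a and Wnt9a, although Prss38 was the nearest coding gene. Wif1, which encodes a secreted WNT-binding inhibitor, had a peak of rank 49 located 55.1 kb upstream, with Lemd3 nearest. Bcl9, a β-catenin co-factor, had a peak of rank 79 at 1.2 kb from its 5′ end, and Ctnnb1, which encodes β-catenin, had one of rank 221 at 4.51 kb. At E10.5, the leading genes were Dvl1 (rank 131, with Tas1r3 nearest), Tcf7l1 (rank 212, at 1.25 kb) and Notum (rank 300, with Npb nearest), followed by Wnt10b and Wnt1 with the same peak (rank 313). In comparison, the best rank among the 10 genes was 1343 of 2073 at E9.5 and 1501 of 6185 at E10.5. The other genes of the wider list are more numerous, so a better best rank among them is not a result about the 10 genes. The 9 genes with a shared peak were Wnt2b, Wnt3a, Wnt5b, Wnt9a, Lrp6, Wif1, Dvl1, Ctnnb1 and Bcl9. Of these, Lrp6, Ctnnb1 and Bcl9 carried it within 5 kb of their own 5′ end.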

How the data were processed

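SMAD4-3xFLAG ChIP and input DNA were sequenced by the authors in 8 samples, 2 per group. Per the submitters' processing notes, Bowtie 1.1.0, MACS 1.4 and the mm9 build were used, and the study's methods state that the replicates of a stage were merged by MSPC. The deposited lists give position and a score whose unit they do not name, assigned by the authors, and used here for ranks alone. No read counts are given, so depth is unknown. Distances ran from the peak centre to the 5′ end of the gene (GENCODE vM1), in Python 3.11.15 with matplotlib 3.10.9, pysam 0.24.0, pandas 2.3.3 and numpy 2.4.6, with 1-based coordinates. Motifs were counted in the central 300 bp, and promoters span 250 bp before to 50 bp after the 5′ end. All 10 genes are named with every peak, as are the 5 best-ranked other genes of the wider list per stage and those with shared peaks. Windows shown are those of the best-ranked peak of each gene, except 1 that is not reported here, and the E9.5 windows of Wnt5a and En1 were added after their motif counts were seen. The genes and lists were chosen with earlier results of these data known. All 92 genes of the wider list were found, 1 under an older symbol. Scripts were tested on simulated data. No test was run, since each stage has 1 merged list. Alternatives were other distances, other starting points, score limits, overlap rules and window sizes.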

Additional observations from a re-analysis of the deposited data

How the results depend on the processing

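The peak lists used here hold both replicates of a stage merged. From them, no paired analysis could be made and no replicate could be left out. Of 103 alternative values, 63 stayed within 1.5 times the reported one and 40 did not. Percentages in parentheses below are shares of all coding genes, of all peaks or of all windows under the same rule. They stand beside each count and are not its own share. Within 50 kb, the wider list had 11 genes with an E9.5 peak, beside 11.4% of all coding genes. Within 200 kb, it had 37 (34.5%), and the 10 genes had 11 E10.5 peaks. Within 1 Mb, 8 of 10 genes had an E9.5 peak (78.4% of all coding genes), 10 an E10.5 peak (91.3%) and 8 both (76.5%), with 22 E9.5 and 61 E10.5 peaks, of which 2 and 2 were shared (18.7% and 6.26% of the lists), and 78 genes of the wider list had an E9.5 peak. With scores at or above the 90th percentile, 0 genes had a peak at E9.5, 0 at E10.5 and 0 at both, with 0 and 0 peaks (3.04%, 10.2% and 1.53% of all coding genes), and the wider list had 4 and 12 genes. Among peaks scoring above the median of each list, 0 of the 10 genes had an E9.5 peak (12.4% of all coding genes) and 0 had both (7.26%), with 0 E9.5 peaks, and the wider list had 12 genes at E9.5. With the E10.5 list cut to the length of the E9.5 list, Wnt5a was the 1 gene with an E10.5 peak (28.0% of all coding genes), through 1 peak, 1 gene had both stages (8.72%), and the wider list had 37 genes. With peaks given to the nearest coding 5′ end alone, 2 of the 10 genes had an E9.5 peak (6.75% of all coding genes), 5 an E10.5 peak (20.3%) and 2 both (3.06%), and the wider list had 11 and 43 genes. Any motif was found in 5 of 9 windows of 300 bp (69.5% of all E9.5 and 63.1% of all E10.5 windows), 8 of 500 bp (84.4% and 81.2%) and 9 of 9 whole peaks (95.8% and 99.1%). No shared peak appeared at the 10 genes under other overlap rules, by which 16.9% of E9.5 peaks and 5.66% of E10.5 peaks were shared with 50% reciprocal overlap, 14.0% and 4.69% with centres within 250 bp, and 19.1% and 6.43% with 1 kb allowed between regions. The unknown depth limits every absence of a peak, and the longer E10.5 list can place more genes near a peak for reasons not tested here.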
